A study of Mus musculus with 6 samples.

Results

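The transcriptome described here is that of mouse 2-cell embryos that were cultured in KSOM medium and were not injected. It was read in 2 RNA-seq libraries, termed library 1 and library 2, chosen by their label as non-injected embryos, of 6 libraries in the series. The other 4 libraries, in groups of 2, came from embryos whose zygotes had received 0.6 µg/µl of Suv39h1wt or Suv39h1mut mRNA 18 h after hCG; Suv39h1 encodes a histone methyltransferase of heterochromatin. They were not compared with the non-injected embryos here. Neither the mouse strain nor the number of embryos behind a library is given in the labels, and nothing there says that both libraries came from separate collections, so the spread between them may be technical. All 26982 genes of the deposited table were examined, of which 22441 had at least 1 read count in a non-injected library.

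The 2-cell embryo of the mouse lives on RNA and protein laid down by the growing oocyte while its own genome is switched on. The maternal stock is stored in the oocyte under translational control and is cleared by deadenylation and decay, and a short burst of embryonic transcription brings on a set of genes that later stages no longer use. Embryonic cells of this stage divide without growing, use pyruvate more than glucose, and have not yet chosen a lineage.

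Each gene had a raw read count, a normalized count (raw over the size factor of its library, 0.947 in library 1 and 0.798 in library 2) and that normalized count divided by the gene's length in kb. The length-scaled value is termed the level, and the mean of both libraries is used for ranks. Total gene counts were 33.5 M in library 1 and 36.4 M in library 2, and values of both libraries are given in that order throughout. At least 1 count was found for 20305 and 19317 genes, and at least 10 counts for 15405 and 14928. Among the 19387 nuclear protein-coding genes the median level was 66.9, the upper quartile 454 and the level exceeded by 1% of genes 9281. Of these genes, 12003 (61.9%) had at least 10 counts in each library and 2048 (10.6%) had 0 in both. In a bulk sample, fewer cells of a type and less RNA per cell cannot be told apart.

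Mitochondrial RNA made up a large share of each library. The 37 genes of the mitochondrial genome took 40.7% of gene counts in library 1 (exact 95% interval 40.64% to 40.67%, counting error only) and 55.0% in library 2 (55.02% to 55.06%), a mean of 47.8% ± 10.2 (SD, n = 2). The share was higher in library 2. The large ribosomal RNA mt-Rnr2 had 7406713 and 12321222 counts, and the small one, mt-Rnr1, 4972410 and 4720469. Together these rRNAs held 37.0% and 46.8% of all gene counts. Both are part of the mitochondrial ribosome, which translates the 13 proteins encoded in the mitochondrion.

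The 13 mitochondrial mRNAs encode subunits of the respiratory chain and of ATP synthase, and they held 3.69% and 8.27% of counts. All 13 had a higher normalized count in library 2, with a median log2 ratio of library 2 to library 1 of 1.50. The highest mean level was that of mt-Nd2, a subunit of complex I, at 132473 in library 1 and 709663 in library 2. It was followed by mt-Nd4 (183677 and 521168), mt-Co2 of cytochrome oxidase (171436 and 459144) and mt-Atp8 of ATP synthase (39968 and 588130). The order among these genes was therefore not stable: mt-Nd1, at 186473 and 331892, had the highest level of all mitochondrial mRNAs in library 1. Cytochrome b, mt-Cytb, had levels of 135043 and 481710, and mt-Atp6 40139 and 313422. Levels of mt-Nd5 (102560 and 231946), mt-Nd3 (80958 and 234647) and mt-Nd6 (66700 and 120143) lay lower. The closest agreement among the mRNAs was that of mt-Co3, at 39394 and 46139, and mt-Co1 followed with 96885 and 130804. At the bottom, mt-Nd4l had only 19 and 137 counts, a level of 67.6 and 578. The 22 mitochondrial tRNAs had 2875 and 2171 counts in sum, and mt-Ts1 and mt-Tp were the highest of them.

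Nuclear protein-coding genes took 57.1% and 41.9% of all gene counts, which was 96.2% and 93.2% of the nuclear counts. Long intergenic noncoding RNAs held 0.704% and 0.488% of all counts, antisense genes 0.599% and 0.476%, and pseudogenes 0.643% and 0.663%. These 3 classes were each below 1% in both libraries. Loci annotated as microRNA genes held 0.171% of counts in library 1 and 1.30% in library 2. Since such loci are short, they held 5.64% and 40.4% of the summed level of nuclear genes. Nuclear protein-coding genes held 87.7% and 54.7% of that sum.

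**Figure D1:**
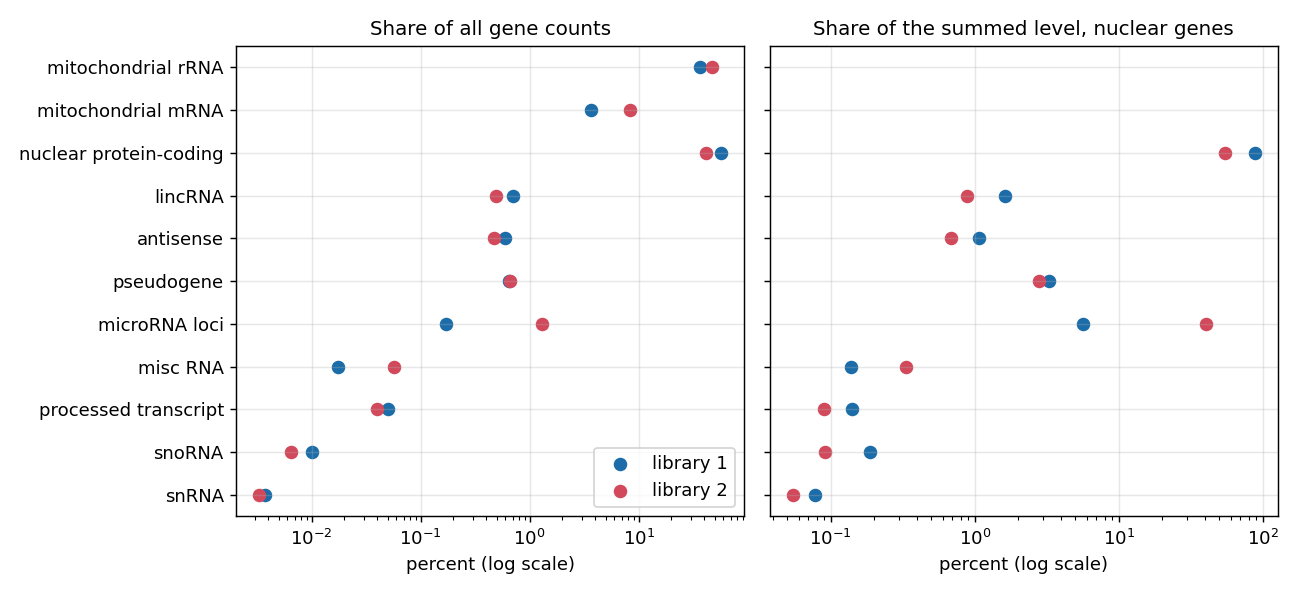
Share of each annotated gene class in the 2 non-injected libraries, as percent of all gene counts (left) and of the summed level of nuclear genes (right), both on log axes, with 1 point per library. Mitochondrial rRNA and nuclear protein-coding genes lead the counts, and microRNA loci move from 5.64% to 40.4% of the summed nuclear level between library 1 and library 2.

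Among the 612 microRNA loci, 5 held 96.0% of the class's counts in library 1 and 99.5% in library 2. The locus mmu-mir-689-2, 57 bases long on chromosome 16 (mm9, 11144218 to 11144274), had 22245 and 383088 counts. It lies inside Zc3h7a, whose own counts were 538 and 414. Mir5102 (87 bases, inside Fgfr2) had 27499 and 32338 counts while Fgfr2 had 98 and 210, so this locus was close in both libraries. Mir5105, inside Cdk8, had 615 and 14746 counts, and the pair of loci named mmu-mir-2134-4 had 2258 and 29273 on chromosome 9 and 2499 and 12188 on chromosome 13. The remaining microRNA loci had 2305 and 2575 counts in all. These values are reads over short annotated loci; the libraries were made from total RNA with random and poly-T primers, and mature microRNA was not measured separately.

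Among noncoding genes of at least 200 bases, the highest level belonged to Gm16344, an antisense gene on chromosome 18 that overlaps Myo7b, at 95908 and 91536. Its counts were 142316 and 114450, against 9 and 35 for Myo7b; whether the counting used strand is not given in the sources used here. RP23-425D13.4 followed at 46675 and 56150. Next was the chromosome 9 locus of 7SK, the RNA that holds the transcription elongation factor P-TEFb in an inactive complex, at 9654 and 63849. A further 109 loci carry the 7SK name and had 619 and 1033 counts in sum, against 3026 and 16863 for the chromosome 9 locus. Gm12913 (8803 and 40756) was higher in library 2, and Gm12798 (31026 and 14582) in library 1. Gm16344, RP23-425D13.4, the chromosome 9 locus of 7SK and Gm12798 share part of their sequence with other annotated genes, as given below. Their levels may therefore include reads of other loci. Gm12913 had no value for this check.

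A run of 15 pseudogenes on chromosome 11 (mm9, 60374426 to 60506577) had reads that differed widely between copies. Of them, 11 are 381 to 385 bases long in the authors' lengths. They had 28837 and 67930 counts in sum, 13.4% and 28.1% of all pseudogene counts, and all 15 had a higher normalized count in library 2. The highest were Gm12625, at levels of 12730 and 26506, and Gm12622, at 8227 and 27254. Gm12614, of the same length as both and within the run, had 0 and 3 counts, and the longer Gm12623 and Gm12620 had 58 and 397 and 75 and 235. Reads of such repeated copies may be split between loci by the counting, so single values are uncertain. The run was picked out after its values had been seen.

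Genes known from the oocyte and genes of general role stood side by side at the top of the protein-coding part of the nuclear transcriptome. Spin1, which encodes spindlin, a reader of histone H3 methylation that is abundant in oocytes, had the highest level, 157468 in library 1 and 119021 in library 2. Zbed3, a partner of the subcortical maternal complex, had 98499 and 65701, and Dppa3, which shields maternal chromatin from loss of DNA methylation, 80644 and 39764. The oocyte maturation genes Omt2b (68772 and 115981) and Omt2a (42312 and 66683) were higher in library 2. Oosp1, a protein secreted by oocytes, was just outside the top 20 at 17061 and 41841.

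Genes of general role lay between them in rank. Ccdc6 was second at 132290 and 80862. Lars2, the leucyl-tRNA synthetase of mitochondria, had the highest raw counts of any protein-coding nuclear gene, 249239 and 346250, and a level of 67818 and 111813. Cul1 (39712 and 40634) encodes a cullin scaffold of ubiquitin ligases. Polycomb genes were Bmi1 (63839 and 83404), of complex 1, and Suz12 (54232 and 26055), of complex 2. Signalling genes were Wnk1 (66318 and 44965), a kinase of ion transport, and Dusp7 (40514 and 44441), a phosphatase of MAP kinases. Translation was represented by Eif4g2 (76442 and 58651) and by the ribosomal protein gene Rpl41 (39298 and 41734). The levels of Cul1, Rpl41 and Dusp7 were nearly the same in both libraries, while Suz12 was higher in library 1. Also among the 20 were A630007B06Rik (78554 and 40912), Mtus1 (51218 and 44861), Hexdc (55580 and 22406), 2010107G23Rik (27803 and 36573) and Gm10925.

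Gm10925, a gene on chromosome 1 annotated as protein-coding, had levels of 9518 and 200417. All 648 words of 31 bases in its transcript also occur in mt-Atp6, whose counts moved in the same direction (25885 and 170306), so reads of the nuclear copy and of the mitochondrial gene cannot be told apart. Among the other 19 genes the libraries differed by at most 2.48-fold. Sequence shared with other genes also touches other abundant genes: Omt2a and Omt2b share 642 words, 42.3% and 40.2% of their own. Words shared with other genes made up 29.6% of Dppa3, 28.2% of Bmi1, 26.1% of Hexdc (over 460 genes) and 23.2% of Rpl41. Zbed3 and A630007B06Rik shared 0 words with any other annotated gene. In the noncoding genes named above, shared words made up 28.9% of Gm16344 (over 1277 genes) and 23.2% of RP23-425D13.4 (over 214 genes). Such words were 72.8% of 7SK (over 25 genes) and 20.8% of Gm12798 (over 65 genes).

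**Figure D2:**
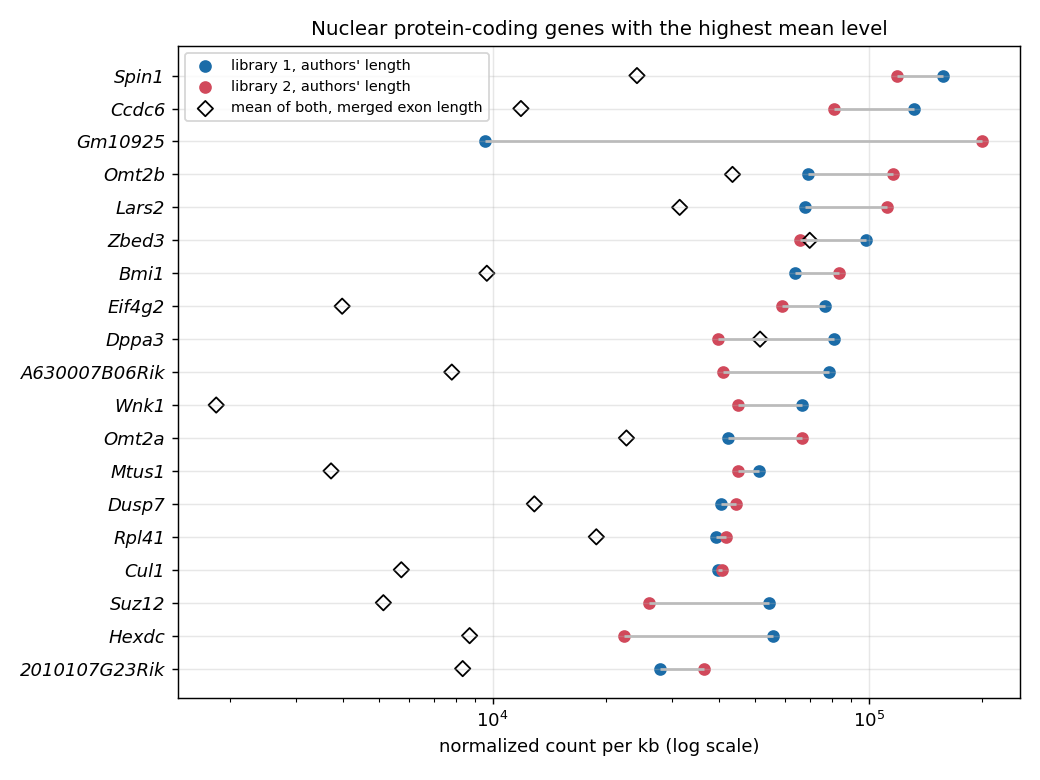
Levels of 19 of the 20 nuclear protein-coding genes with the highest mean level. Filled points are the level in library 1 and library 2 with the authors' gene length, and diamonds are the mean of both libraries divided by merged exon length in GENCODE M21 (log axis; Gm10925 has no matched length). Zbed3 and Dppa3 change little with the longer length, and the mean level of Wnk1 is 55641 with the authors' length and 1840.5 with merged exons.

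The length in the denominator decides part of this order. The median authors' length of protein-coding genes was 1701 bases, and 18 of the 20 genes were below it. Its definition is not given in the sources used here. Of 16520 genes with at least 2 transcripts in GENCODE M21, the authors' length was within 0.5 bases of the median transcript length in 35.6%, of the longest transcript in 2.88% and of the merged exons in 0.575%. Wnk1, with 755 bases in the authors' table and 22825 bases of merged exons, ranked 11 by the authors' length and 418 by merged exons. Eif4g2 moved from 8 to 108 and Mtus1 from 13 to 122. Merged exon lengths were matched for 18611 nuclear protein-coding genes (96.0%), and Gm10925 was not among them. With these lengths the 6 highest were Zbed3, Dppa3, Omt2b, Lars2, Spin1 and Omt2a. Of the 20 genes 9 stayed in the top 20, and Gm10925 left it for want of a length. Genes that entered included the metallothioneins Mt2 and Mt1, the ribosomal protein genes Rplp1 and Rps29, Oosp1, Khdc1b and Tcl1b1. This alternative length was chosen after the data had been seen. The top 100 protein-coding genes held 20.7% ± 0.569 (SD, n = 2) of the summed protein-coding level, the top 10 held 6.45% ± 0.393 and the top 1000 held 57.8% ± 0.786.

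The start regions of genes differed in CG content by level. Promoter windows of RefSeq (GRCm38.p6, 250 bases before to 50 after each start) were matched by symbol, and 10761 protein-coding genes had a single window. In CpG islands the dinucleotide CG occurs about as often as base composition gives, while in the rest of the genome it is depleted. The median ratio of observed to expected CG was 0.24 in genes with 0 counts, 0.371, 0.61 and 0.769 in the lowest, the second and the third quartile of read genes by level, and 0.849 in the highest quartile. A ratio of at least 0.6 was found in 16.3% of windows of unread genes and 85.6% of those in the highest quartile. Lists of oocyte and activation genes, described below and mostly abundant, differed in this ratio. Its median was 0.17 in 4 genes of the subcortical maternal complex, 0.275 in 3 zona and oocyte-secreted genes and 0.186 in 15 genes of the transient 2-cell programme. It was higher in 11 oocyte transcription and meiosis genes (0.411), 11 early activation regulators (0.584) and 9 genes of mRNA storage and decay (0.669), 5 of which reached 0.6. In the cell cycle list it was 0.949 over 22 genes.

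The motif TATAAA, searched on both strands from 50 to 11 bases before the start, was present in 7.52% of windows of unread genes, 4.86%, 3.81% and 1.68% of the next 3 classes, and 1.42% of the highest quartile. It was in 3.15% of all 32851 RefSeq windows. None of the 6 promoters printed below holds it. They are shown for the contrast between abundant oocyte genes, abundant genes of general role and an unread sperm gene, and capitals mark each CG.

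The 250 bases before the start are printed 5′ to 3′ on the strand of the gene, with levels as the mean of both libraries.
Omt2b: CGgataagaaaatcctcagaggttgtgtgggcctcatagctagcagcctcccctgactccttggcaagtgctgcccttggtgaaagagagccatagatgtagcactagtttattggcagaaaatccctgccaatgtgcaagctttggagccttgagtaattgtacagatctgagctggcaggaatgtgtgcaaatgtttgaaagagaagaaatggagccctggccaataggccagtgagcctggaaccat
Omt2a: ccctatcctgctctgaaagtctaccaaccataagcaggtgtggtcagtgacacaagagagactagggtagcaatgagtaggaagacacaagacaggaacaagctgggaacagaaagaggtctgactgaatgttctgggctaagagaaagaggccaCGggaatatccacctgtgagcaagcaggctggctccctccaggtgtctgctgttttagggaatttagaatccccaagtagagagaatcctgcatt
Btg4: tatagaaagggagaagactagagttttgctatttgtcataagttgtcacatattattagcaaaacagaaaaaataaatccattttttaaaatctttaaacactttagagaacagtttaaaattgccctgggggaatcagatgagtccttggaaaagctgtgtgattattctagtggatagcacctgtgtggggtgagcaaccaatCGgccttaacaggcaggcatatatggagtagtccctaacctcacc
Ccdc6: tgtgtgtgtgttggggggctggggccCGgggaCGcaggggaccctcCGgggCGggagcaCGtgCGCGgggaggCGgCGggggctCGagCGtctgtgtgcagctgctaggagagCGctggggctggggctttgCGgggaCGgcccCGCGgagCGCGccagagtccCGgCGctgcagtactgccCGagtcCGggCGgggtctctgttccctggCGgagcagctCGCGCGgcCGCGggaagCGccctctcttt
Dusp7: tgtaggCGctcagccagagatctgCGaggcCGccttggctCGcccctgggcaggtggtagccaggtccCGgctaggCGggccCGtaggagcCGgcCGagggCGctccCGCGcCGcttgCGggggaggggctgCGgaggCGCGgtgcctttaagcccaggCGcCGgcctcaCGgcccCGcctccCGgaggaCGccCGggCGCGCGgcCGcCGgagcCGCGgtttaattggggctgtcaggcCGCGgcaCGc
Prm1: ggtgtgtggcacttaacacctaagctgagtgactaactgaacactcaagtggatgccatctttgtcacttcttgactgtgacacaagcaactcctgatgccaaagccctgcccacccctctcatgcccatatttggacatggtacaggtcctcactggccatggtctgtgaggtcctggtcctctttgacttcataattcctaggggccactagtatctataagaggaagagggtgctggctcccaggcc
They lie, in GRCm38.p6, at chr9:78327780-78328029 (plus strand, Omt2b), chr9:78314049-78314298 (minus strand, Omt2a), chr9:51115751-51116000 (plus strand, Btg4), chr10:70096871-70097120 (plus strand, Ccdc6), chr9:106368382-106368631 (plus strand, Dusp7), chr16:10796824-10797073 (minus strand, Prm1).

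Omt2b, Omt2a and Btg4 each have 1 CG in these bases, although their mean levels were 92376, 54497 and 15997. Ccdc6 and Dusp7, at mean levels of 106576 and 42477, have 30 and 34. Prm1, a protamine of sperm with 0 counts in both libraries, has 0. A low CG content therefore occurred at both ends of the range of levels.

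**Figure D3:**
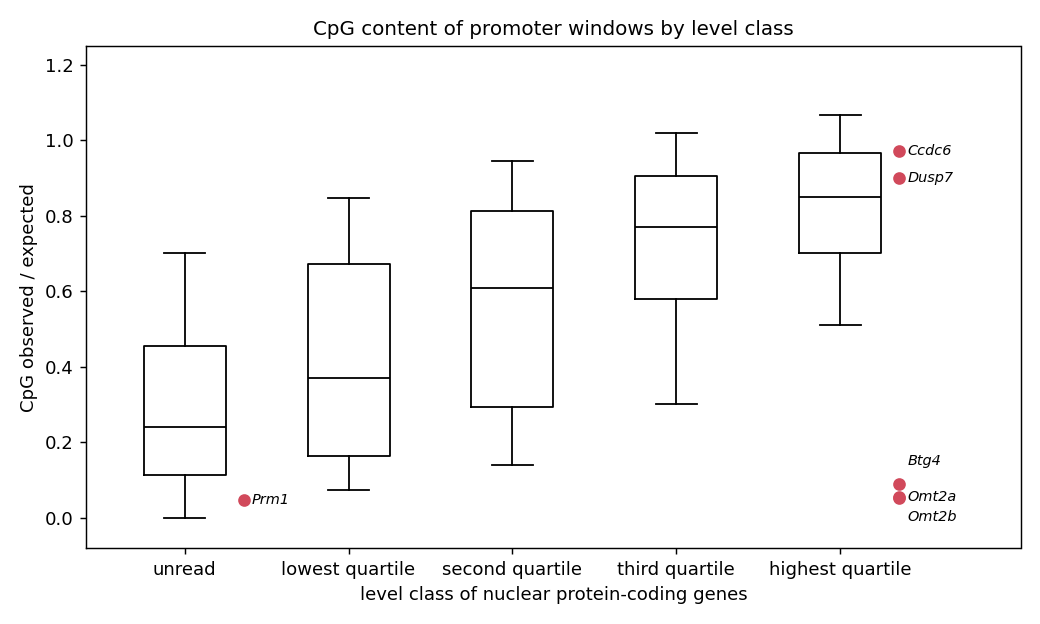
Ratio of observed to expected CG in 300-base promoter windows by level class of nuclear protein-coding genes. Boxes run from the 25th to the 75th percentile with the median as a line, whiskers from the 10th to the 90th, and red points are the printed genes; medians go from 0.24 in unread genes to 0.849 in the highest quartile, and Omt2a, Omt2b and Btg4 lie far below the whisker of their class.

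By the authors' gene length, lists of the stored maternal programme had median levels of 813 to 1441. These lay below housekeeping genes (2535) and early activation regulators (2340). The cell cycle list, at 1316, lay in the same range as the maternal lists by that length. The lists are described by their median level beside 66.9, the median of all nuclear protein-coding genes; 15 of 22 lists lay above it. List medians depend on the gene length: with merged exons the median of all protein-coding genes was 34.7. The subcortical complex then had 590, zona and oocyte-secreted genes 1136, mRNA storage and decay 540, and oocyte transcription and meiosis genes 731. Early activation regulators had 975, glycolysis 282, pyruvate use 130, cell cycle 385, histone variants 381, heterochromatin 220 and housekeeping genes 862. With these lengths the zona list lay above early activation regulators and housekeeping genes, and the cell cycle list below every maternal list. Where the direction between libraries is counted below, of the 4025 nuclear genes with a mean of 1000 to 10000 normalized counts 1877 were higher in library 2 and 2148 in library 1, and of the 6426 with 100 to 1000 the numbers were 3422 and 3004. In the subcortical maternal complex and its partners, which anchor under the membrane of the oocyte and are needed past the first cleavages, all 8 matched members exceeded 66.9 and the median was 999 (1450 in library 1 and 555 in library 2). Zbed3 was far above the rest: Tle6 followed at 3384 and 1589, and Nlrp2 was lowest at 131 and 140. Nlrp14 (1774 and 723), Ooep (1981 and 429) and Nlrp5 (1126 and 448) lay between. In this list 7 of 8 members were higher in library 1.

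Zona pellucida and oocyte-secreted genes had a median of 1441, with 7 of 8 above 66.9. Oosp1 was highest, followed by the growth factor Gdf9 at 15806 and 25682 and its partner Bmp15 at 3827 and 3896. The egg coat genes Zp3 (1762 and 2238), Zp2 (1368 and 394) and Zp1 (264 and 728) were read in both libraries. The lowest was Fgf8, with 2 and 22 counts. Here 7 of 8 members were higher in library 2.

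Genes of mRNA storage and decay had a median of 1086, and 17 of 18 exceeded 66.9. Btg4, the adaptor that brings the CCR4-NOT deadenylase to maternal mRNA, had 16865 and 15128. Eif4enif1, which represses translation at the cap, had 12361 and 7023, and Cnot6l, a deadenylase subunit, 13790.3 and 3741. Patl2 was lowest at 5.64 and 10.8. Oocyte transcription and meiosis genes had a median of 813, led by Omt2b and Dppa3, with Bcl2l10 (9991 and 10161), Zfp57 (6200 and 11265), a guardian of imprints, and Wee2 (10271 and 4190), an inhibitor of meiotic CDK1. Some transcription factors of the early follicle were at the bottom: Lhx8 had 1 and 7 counts, and Figla 0 in both. Dnmt1, the maintenance DNA methyltransferase, had 803 and 823.

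The genes that start transcription in the embryo were mostly abundant. Early activation regulators had a median of 2340, and 22 of 23 exceeded 66.9. Yap1, the effector of Hippo signalling, had 27735 and 19050.1, and the homeobox gene Obox5 had 10657 and 9239. Gabpa (9074 and 9106), Nfya (4348 and 2430), Klf17 (1743 and 1979), Nr5a2 (582 and 825) and Dppa2 (1267 and 1183) were read in both libraries. Mycn was lowest, with 44 and 50 counts, whereas Myc had 387 and 329.

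Genes of the transient 2-cell programme ranged from unread to abundant. Their median was 332 (402 and 221 in the single libraries), with 34 of 42 matched members above 66.9. Whether single members are confined to this stage was not tested. Highest in the list were Sp110 (14840.3 and 25954) and Hsp90aa1 (19902 and 10133). Slc34a2 (7835 and 5860), a phosphate transporter, the growth factor Fgf1 (6859 and 6659) and Zfp352 (3822 and 5091) followed. Spz1 (1572 and 973) and Tdpoz4 (1218 and 643) were also read in both libraries. The Zscan4 genes, which mark this stage and act at telomeres, were modest: Zscan4d had 821 and 213 counts (435 and 134), and Zscan4c 363 and 177. Dux, the homeobox activator of the programme, had 0 and 16 counts, and Tdpoz5 was unread in both. Zscan4, Tdpoz and related genes are near-identical copies, so the split of reads among them is uncertain. In this list 28 members were higher in library 1 and 13 in library 2.

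Pluripotency and early lineage regulators had a median of 115, with 15 of 26 above 66.9. The RNA-binding protein Lin28a had 4419 and 4515, Pou5f1 2823 and 2868, and Gata4 1861 and 2172, each close between libraries. Nanog had 160 and 145 counts (84.4 and 90.8), Sox2 71 and 138, and Gata6 91 and 33. Cdx2, the regulator of trophectoderm, had 0 and 3 counts, and Sox17, of endoderm, 0 in both, where 0 counts allows up to 3 counts in a library. Adhesion and compaction genes, all 17 above 66.9, had a median of 485. The tight junction gene F11r (5845 and 3459) and the polarity gene Pard3 (3116 and 4800.4) led it, Cdh1, the cadherin of compaction, had 470 and 466, and Cdh2 was lowest at 35.2 and 199.

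Metabolic genes were read at high level. Glycolysis had a median of 1006 (652 and 997 in the single libraries). Ldhb (6125 and 7718) was above Ldha (1791 and 2174), and the glucose transporter Slc2a3 (2839 and 4293) above Slc2a1 (482 and 1530). The muscle isoform Pfkm was lowest at 2.98 and 8.85. Eno1, at 349 and 6054, differed most between the libraries. The list of pyruvate use and citric acid cycle had a lower median of 402, led by Mdh2 (3468 and 4083) and Pdha1 (2728 and 2256), and the pyruvate carrier genes Brp44l (2273 and 2224) and Brp44 (2569 and 1615) were also high. Slc16a7, a monocarboxylate transporter, was lowest, with 0 and 18 counts.

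The division machinery was present at a median of 1316, and 30 of 33 members exceeded 66.9. Rb1 had the highest level, 21868 and 18189, with an authors' length of only 409.5 bases. Ccna2 (14968 and 10549), Ccne1 (10244 and 13750), Ccnb1 (5493 and 9871) and Cdk1 (5754 and 5471) followed. Among the D cyclins, Ccnd2 was the lowest member of the list with 35 and 8 counts, and Ccnd1 had 462 and 24. Histone variants and linker histones had a median of 1055, which was 424 in library 1 and 1706 in library 2, with H3f3b (7404 and 6530) and H2afz (3158 and 10769) highest, and the oocyte linker histone H1foo at 800 and 3621. Hist1h1e was unread. In this list 13 of 16 members were higher in library 2.

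Heterochromatin writers and readers, the setting of the injected enzyme, had a median of 786, and all 15 were above 66.9. Atrx (29090 and 8036) and Setd8 (7493 and 16062) were highest. Endogenous Suv39h1 had levels of 615 and 516 from 1618 and 1144 counts, close between libraries. Its paralogue Suv39h2 had levels of 1564 and 769. Setdb1 had 276 and 223, Ehmt2 336 and 1237, and Cbx5, which encodes HP1alpha, 987 and 279. Suv420h2 was lowest at 75.7 and 65.4. Housekeeping reference genes had a median of 2535 (1687 and 2277 in the single libraries), with Ywhaz (24256 and 8857) and Rpl13a (9054 and 7108) highest and Gusb (72.4 and 83.1) lowest, and Actb at 1404 in library 1 and 5724 in library 2.

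Y-linked genes were low, while the X inactivation list had 2 of 3 matched members above 66.9 and a median of 80.8. The 8 matched Y-linked genes had a median of 13.6, and 2 of them exceeded 66.9. Eif2s3y had 202 and 63 counts and Uty 502 and 246. Ddx3y had the lowest level, 5.46 and 2.70 from 24 and 10 counts, and Zfy1 had the fewest counts, 3 and 19. Rlim, which drives inactivation of the X, had levels of 1726 and 1838. Xist, the RNA that coats the X, had levels of 88.1 and 73.5 from 737 and 518 counts. Tsix had 3 and 33 counts. The X chromosome held 5.54% of the nuclear genes and 2.64% ± 0.369 (SD, n = 2) of nuclear counts, and the median level of its protein-coding genes was 27.6, the lowest of any chromosome but Y.

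The label was checked against markers of other cells, beside the oocyte lists above, which were high. Of 15 cumulus and granulosa markers 6 were unread in both libraries, among them Fshr, Lhcgr, Inha and Cyp11a1, and the median was 0.69. Of the 15, 4 exceeded 66.9: Amhr2 was highest, at 1249 and 1070 counts, and Cyp19a1 had 25 and 137. Sperm markers had a median of 0.166, with 0 of 8 above 66.9 and Prm1, Prm2, Prm3 and Odf1 at 0 and Ldhc highest at 16 and 65. Blood markers had a median of 9.51 (4.29 and 10.7 in the single libraries), and 4 of 9 exceeded 66.9. These were Hba-a1 at 110 and 149 counts, Hba-a2 at 60 and 92, Cd68 at 16 and 169 and Cd3e at 0 and 254, while S100a9 was at 0. Liver markers (median 9.64, with 6.59 and 2.40 in the single libraries; 1 of 9 above 66.9) were led by Apoa2 with 3 and 107 counts and Afp with 203 and 18, and Fgb was unread. Neuron and glia markers (median 9.01, with 14.6 and 3.13; 1 of 13 above) were led by Tubb3, at 138 and 647, and Mbp, with Snap25 lowest at 1 and 0. Muscle markers had a median of 2.5 (2.99 and 0), but Ttn had 20854 and 7864 counts and Myh6 11 and 113, while Tnnt2 and Mb were unread. Counts summed over a list were 1726 and 1411 for cumulus, 99 and 65 for sperm, and 234 and 693 for blood. Whether these reads came from other cells was not tested.

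**Figure D4:**
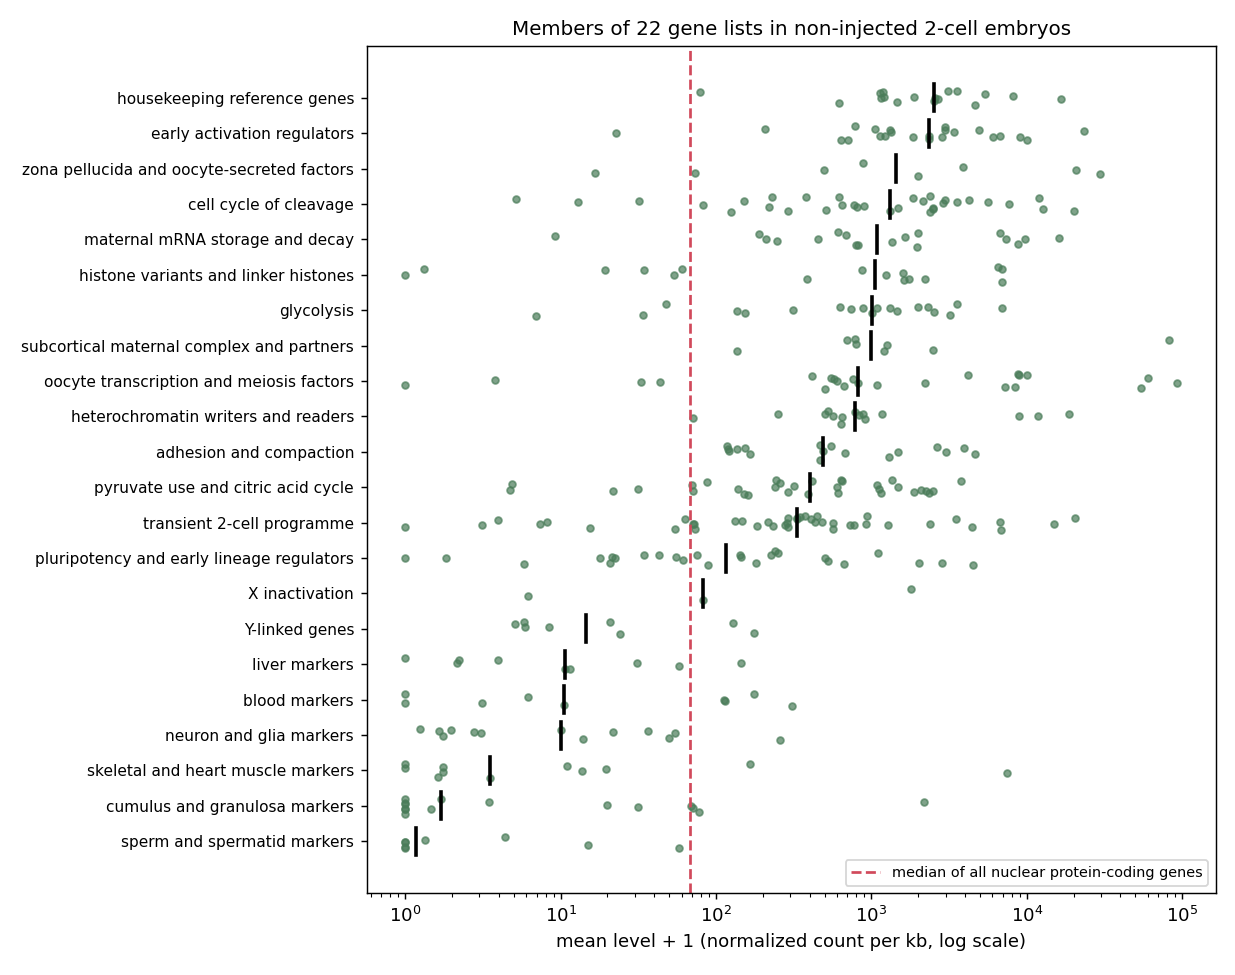
Mean level plus 1 of every matched member of 22 gene lists (points, log axis), with the list's median as a bar and the median of all nuclear protein-coding genes as a dashed line. The medians of the maternal, activation, cell cycle and metabolic lists lie right of the line and those of other-cell markers left of it. Right of the line lie 4 of 15 cumulus, 4 of 9 blood and 2 of 11 muscle markers, and 1 each for liver and neuron. Of these, Ttn and Amhr2 lie farthest, at positions that depend on the authors' gene length.

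Gene families showed where the transcriptome was silent. The table lists a gene only if it had at least 1 count in any of the 6 libraries, so the unread share of a family is a lower bound. Sensory receptors, which serve smell, pheromone sensing and taste, were often unread, apart from the taste receptors. Of 627 listed members in 5 families, pseudogenes among them, 295 (47.0%) had 0 counts in both libraries. Among all nuclear protein-coding genes 10.6% were unread, and among all 26982 genes 16.8%. Fewer than 10 counts in each library were found for 512 members (81.7%). At least 10 in each were found for 19 of 412 olfactory receptors, beside 61.9% of all nuclear protein-coding genes. For olfactory receptors 209 of 412 listed members were unread, where another annotation, GENCODE M21, names 1407. Vomeronasal receptors had 35 of 90 (type 1) and 45 of 104 (type 2) unread, trace amine receptors 5 of 8 and taste receptors 1 of 13. Their highest members were low, Olfr1300-ps1 with 336 and 39 counts, Vmn1r-ps128 with 598 and 354, and Vmn2r94 with 444 and 129. Tas1r3, a subunit of sweet and umami receptors, had 281 and 294 counts, and Taar2, a trace amine receptor, 61 and 0.

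Families of secreted and barrier proteins also held many unread members. The 3 listed secretoglobins were unread, as were 8 of 9 major urinary proteins, with 2 counts in all for Mup17. Of late cornified envelope and small proline-rich genes 5 of 7 were unread. Keratin-associated proteins had 7 of 13 unread and keratins 14 of 42, with Krtap4-13 (87 and 108 counts) and Krt84 (553 and 523) highest. Of defensins 16 of 32 were unread, and Defb8 had 241 and 98. The prolactin family had 1 abundant member: Prl8a1 had 15820 and 10359 counts, a level of 13123 and 10198, while the other 8 listed members had at most 6 and 86 counts, and 4 of 9 were unread. Immune families varied, with 50 of 81 immunoglobulin and T cell receptor segments unread, 8 of 18 killer cell lectin-like receptors, 4 of 11 interferons, 7 of 26 chemokines and 6 of 29 interleukins. Single members stood out there as well: Klrg2 had 1336 and 2814 counts, Il7 2927 and 1204, Cxcl16 407 and 665, and Ifna5 99 and 0.

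Regulators of later development were partly silent. Of 40 Hox genes 11 were unread, 23 had fewer than 10 counts in each library and 7 had at least 10 in each. Of all nuclear protein-coding genes 61.9% had at least 10 in each. Hoxa7 was the highest Hox gene at 341 and 403. None of the 16 listed Wnt ligands exceeded a level of 66.9, and Wnt5a was highest, with 37 and 21 counts. Of Rhox genes, on the X chromosome, 5 of 15 were unread, with Rhox8 highest at 57 and 17. The highest members by level of other families were Foxj3 with 26450 and 14350 counts, Tbx19 with 948 and 2153, Pax2 with 791 and 1033, Sox12 with 1336 and 668, and Fgf1 with 2715 and 2221. A level above 66.9, the median of all nuclear protein-coding genes, was reached by 15 of 41 Fox genes and 5 of 13 Tbx genes. The numbers were 2 of 9 for Pax, 5 of 19 for Sox and 7 of 21 for Fgf genes. Among bone morphogenetic proteins Bmp15 led with 11089 and 9512 counts. Canonical histone genes, whose mRNAs end in a stem-loop and not in poly(A), had a median of 18.4, with 14 of 60 unread and 41 higher in library 2.

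Of families known from the oocyte and early embryo, nearly all listed members were read. With few listed members each, this lies close to the share over all nuclear protein-coding genes, 10.6% of which were unread. All listed members of the oogenesins (4), Khdc1 (3), Obox (5), Prame-like (10), Nlrp (18), Fbxw (20) and Zscan4 (6) genes had counts, and of the 5 Tdpoz genes 1 did not. GENCODE M21 names 55 Obox, 13 Prame-like, 21 Nlrp, 24 Fbxw and 9 Zscan4 genes, so the listed members are a part of these families, and the Fbxw name also covers genes of general role. Khdc1b led with 38313 and 12709 counts (18058 and 7109). Oog3 had 6821 and 2199, Fbxw22 2398 and 1461, Pramel7 1409 and 1113, and Nlrp4e 3729 and 1716. All 4 oogenesins and 16 of 20 Fbxw genes were higher in library 1.

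Housekeeping families were read almost throughout, beside 10.6% unread among all nuclear protein-coding genes. All 86 cytosolic ribosomal protein genes had at least 10 counts in each library, with a median of 4540, and 73 of 86 were higher in library 2. Mitochondrial ribosomal proteins had a median of 344 (80 genes, Mrpl51 highest at 3298 and 2869), respiratory chain and ATP synthase genes 727 (Atp5b, 10739 and 24584), proteasome subunits 846 (Psmd11, 4293 and 9224), RNA polymerase subunits 1057 (Polr2f, 3436 and 14532) and chaperonin CCT subunits 1655 (Tcp1, 5519 and 5637). Solute carriers and Zfp-named zinc-finger genes were mixed, with 24 of 350 and 20 of 370 unread; Slc16a6 (4654 and 15934) and Zfp57 were highest. Potassium channels had 9 of 82 unread, with Kcnk6 at 372 and 545, and cytochrome P450 genes 25 of 87, with Cyp51, of cholesterol synthesis, at 1140 and 326. Among small RNA genes 186 of 327 snRNA-named loci were unread, 151 of 340 small nucleolar RNA genes and 76 of 155 Mir-named loci.

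**Figure D5:**
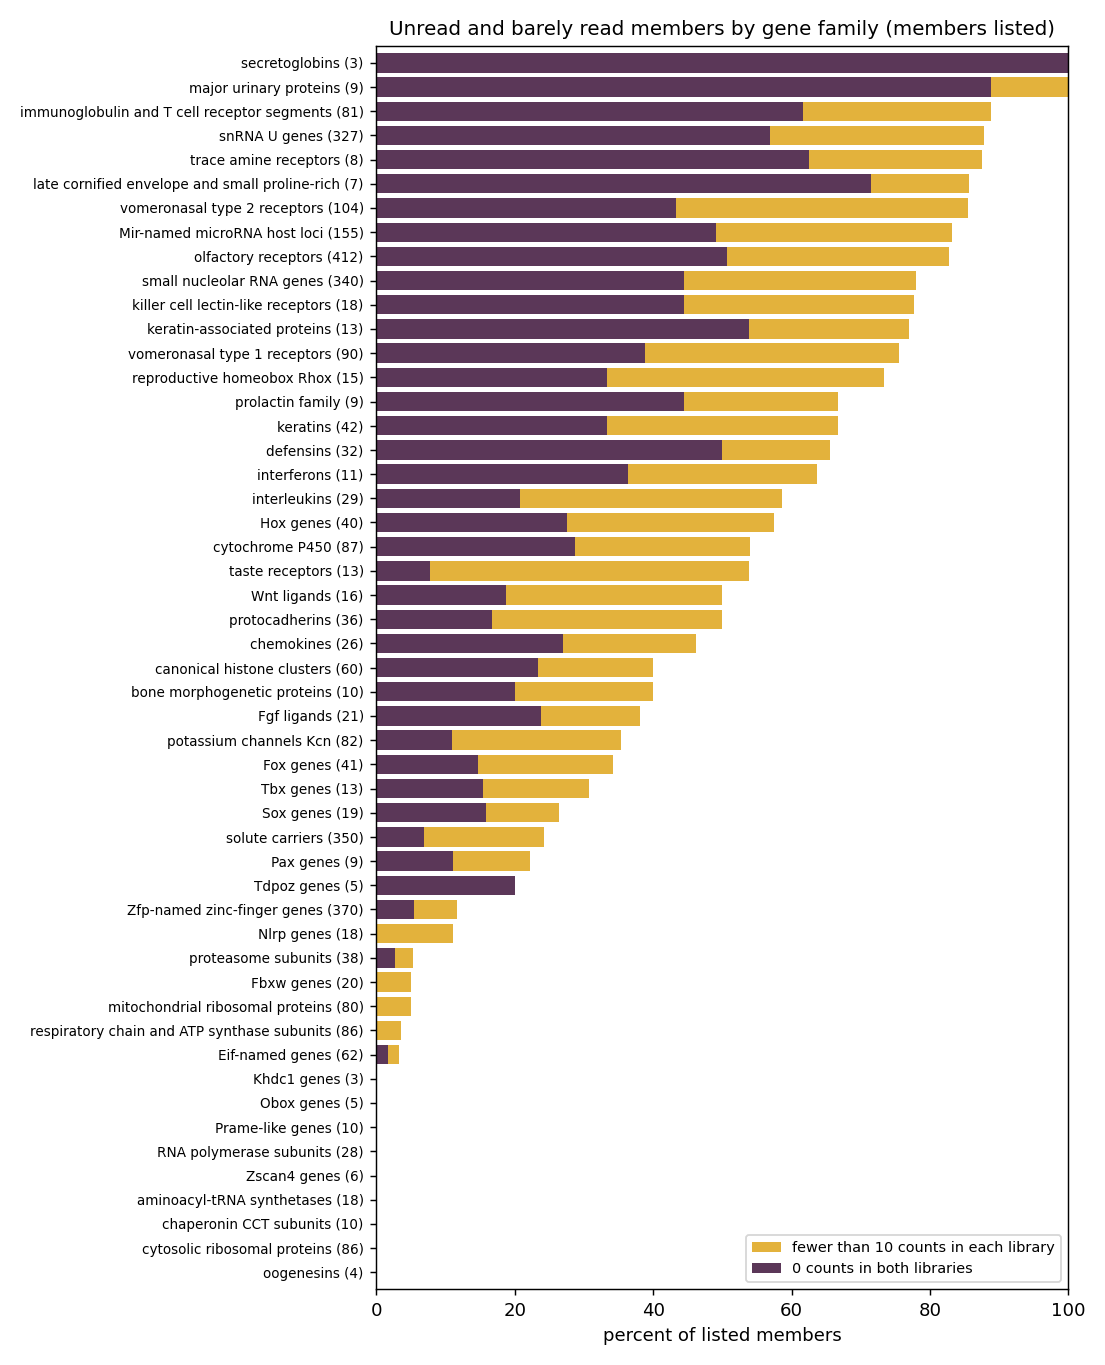
Percent of listed members with 0 counts in both libraries (dark) and with fewer than 10 counts in each (light, drawn behind) for 51 gene families, with the number of listed members in brackets. Secretoglobins (3 of 3), major urinary proteins (8 of 9) and late cornified envelope genes (5 of 7) have the highest unread shares, olfactory receptors lie at 50.7% and taste receptors at 7.69%, and ribosomal proteins, oogenesins and other families without an unread member are at the bottom.

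Annotation terms deposited with the genes are given by compartment, as a description. The term nucleus was held by 52.4% of the 500 protein-coding genes with the highest level, 25.1% of all protein-coding genes and 10.9% of the unread ones. Nucleolus went from 2.81% of all to 10.0% of the top 500, ribosome from 1.69% to 8.2%, RNA splicing from 0.939% to 4.2% and cell cycle from 2.31% to 7.4%. Extracellular region went the other way, from 6.82% of all to 1.8% of the top 500 and 12.9% of the unread. G-protein coupled receptor signaling was held by 14.8% of the unread genes and 2 of the top 500. Plasma membrane was at 12.9% of all genes, 7.2% of the top 500 and 13.5% of the unread. With merged exon lengths the top 500 held nucleus in 46.0% and ribosome in 9.6%.

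The libraries agreed more closely the more a gene was read. The median absolute log2 ratio of normalized counts was 2.10 for 5494 nuclear genes with a mean of 10 to 100, 0.994 for 6426 genes with 100 to 1000, 0.621 for 4025 genes with 1000 to 10000, and 0.596 for 302 genes above that. A change of more than 2-fold between the libraries occurred in 71.7%, 49.8%, 27.6% and 25.8% of these classes. Across 26945 nuclear genes Pearson's r of log2(normalized count + 1) was 0.883, over genes that share both libraries and differ in length. Of 5260 genes read in a single library, the median count was 3 and the highest 717.

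Large single differences were chosen among protein-coding genes with a mean of at least 1000 normalized counts. Higher in library 2 were Igsf9b (2 and 1766 counts), Gm10925, Gadd45b, a stress-response gene (148 and 2279), Ninj1 (152 and 2232) and the glycolytic gene Eno1 (191 and 2792). Higher in library 1 were Fam160b2 (5327 and 306 counts), S100pbp (2300 and 174), Elp2 (1818 and 193), Acly, which makes cytosolic acetyl-CoA (4569 and 549), and 9930021J03Rik (4158 and 525). With 2 libraries of 1 group these are descriptions, and no test applies.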

How the data were processed

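RNA of mouse 2-cell embryos was amplified from 2 ng of total RNA with random and poly-T primers, per the labels' protocols. Per the submitters' processing notes, which name no order, the tools were CASAVA 1.8.2 for base calling, TopHat2 2.0.14 with Bowtie on mm9 for alignment, and HTSeq 0.6.1 for gene counts; the annotation release, strand setting and handling of multi-mapped reads are not given in the sources used here. The deposited table holds raw read counts of 26982 genes, per the file headers. Signal values, the authors' normalized counts and the same divided by gene length in kb, were deposited beside them; the former were a constant multiple of the raw counts within each library when checked. All columns of per-sample values were mapped to samples (0 unmapped). Columns of injected embryos were used only to recover gene lengths and the listing minimum of 1 count.

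No groups were compared and no test was run. Python 3.11.15, pandas 2.3.3 and scipy 1.17.1 were used, and edgeR 4.0.16 in R 4.3.3 for TMM factors of the raw counts. The functions were tested on simulated data. Named genes are the 20 highest nuclear protein-coding genes, the 5 highest noncoding genes of at least 200 bases, mitochondrial genes, the 2 highest and the lowest member of each list, the highest member of families, and the 5 largest differences each way; other members of lists, the short loci, the chromosome 11 run and genes entering under another length were chosen after their values were seen. Of these, 1 of the 20 highest genes is not reported here, and some members of small families are not printed. The lists and families were chosen with earlier results of these data known, and name patterns of families were corrected after their members were seen. Symbols listed more than once were taken at their highest row. Gene IDs were matched to GENCODE M21 for lengths (24667 of 26982) and its transcripts for shared words of 31 bases; no coordinates were carried between builds. Promoters are from RefSeq. Intervals and floors (3 counts) cover counting error only.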

Additional observations from a re-analysis of the deposited data

How the results depend on the processing

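The mitochondrial share of gene counts lay between 40.7% and 55.0% in the single libraries. The protein-coding nuclear share of counts (mean 49.5%) became 94.7% with nuclear genes only in the denominator. Of the 20 highest protein-coding genes 14 stayed with raw counts, 20 with CPM scaling, TMM, a geometric mean or either filter, and 18 with each single library. With merged exon length 9 stayed and with the longest transcript 10, where Gm10925, without a matched length, counts as lost. Merged exon length, the longest transcript and the setting without microRNA loci were chosen after seeing the data. The share of the top 100 nuclear genes in the summed level, 39.4%, became 17.6% with raw counts, 20.8% without genes shorter than 200 bases, 21.99% without microRNA loci and 49.8% with merged exon length, and was 26.8% and 53.4% in the single libraries. The unread share of sensory receptors, 47.0%, became 81.7% with a limit of fewer than 10 counts and was 62.5% and 71.9% in single libraries. The median absolute log2 difference between libraries over nuclear genes with a mean of at least 100 normalized counts, 0.80, was 0.88 with CPM scaling, 0.98 with no filter and 1.03 from 10 mean counts. The difference in median CG ratio between the highest quartile and unread genes, 0.609, was 0.616 by raw count, 0.602 with merged exon length and 0.591 with the first listed promoter. Of 22 lists 15 lay above the protein-coding median under each setting, except 17 when only members with at least 10 counts were kept. The medians themselves were less stable: 13 of 22 moved by more than the spread between libraries with merged exon length, 3 with CPM scaling and 8 with that filter, which raised the medians of cumulus markers to 67.4, blood to 110.8, sperm to 35.1, neuron to 28.2, liver to 20.1 and muscle to 18.6. With merged exon length the neuron median was 1.71, liver 5.50, Y-linked 6.28 and X inactivation 39.8. No paired analysis was possible because no groups were compared. With 2 libraries, levels of genes under 100 counts are imprecise, and copies, antisense genes and short loci are uncertain in both.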
